A study of Mus musculus with 12 samples.

Results

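Genes that mark adipocyte progenitors and their stages, 9 in all (Pdgfra, Pdgfrb, Dpp4, Pi16, Ly6a, Cd34, Dlk1, Icam1 and F3), were followed in white adipose tissue (WAT) of mice on a high-fat diet (HFD). They were found by gene symbol, and all 9 were present among the 27179 genes of each of the 2 deposited tables, one for inguinal WAT (iWAT) and one for epididymal WAT (eWAT). The series holds 12 samples, 3 from mice given the GIP analog and 3 from mice given saline for each depot. All mice were C57/BL6 controls, without the intestinal deletion of HNF4A studied elsewhere in the work, and had spent 2 weeks on HFD. The analog, (D-Ala2)GIP[Lys37PAL], is a stabilized, acylated form of the gut hormone GIP, and mice in its groups received it 5 times under the skin at 2 pmol/kg during the HFD, whereas the saline groups received 5 injections of saline. Before the diet, 3 injections over 10 days on chow accustomed the mice to handling, and only in the analog groups did the last of these hold the analog. Age, sex and whether iWAT and eWAT were taken from the same mice are not in the labels. The paper gives an age range of adult mice for its experiments and names a focus on males, without tying either to these samples.

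The response to the analog was not analysed here. The headings of the 6 columns of values per sample in each table are numbers that match no sample label, so none could be tied to a sample of the series, and these columns were left out of every step. The fold changes and p-values in the tables are the authors' own comparison and were not used. What remained was the authors' average log2 CPM (a gene's read count scaled to a common library total) of each gene in each depot, over both treatments together, on which a gain of 1 is a doubling of the CPM. The averages carry no error, the spread between samples and the depth of each library were not computed, and the tables were normalized separately. The values below therefore describe levels, and differences between iWAT and eWAT were not tested. Since each average joins analog and saline samples, these are not differences between the depots of saline mice alone. In bulk tissue, fewer cells of a type and less RNA per cell cannot be told apart.

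Adipocytes arise from fibroblast-like cells of the fat stroma that carry the receptor PDGFRα. In mouse subcutaneous fat, cells with DPP4 and PI16 lie in the interstitium between lobules and are regarded as an early, multipotent stage. Cells with ICAM1 are regarded as committed preadipocytes, and cells with tissue factor, the product of F3, as a further population reported to restrain adipogenesis in some settings. Most of these markers are shared with other cells, among them endothelium, pericytes and leukocytes.

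Of the 8 genes with an average of at least 1 CPM in both depots, 7 were higher in iWAT than in eWAT, and Pdgfrb alone was lower. The ninth, Dlk1, lay below 1 CPM in both. Pi16 stood apart, with 309 CPM in iWAT and 78.9 CPM in eWAT, and was the only one of the 9 to differ by more than 2-fold. The median difference of the 8, iWAT minus eWAT, was 0.44 on the log2 scale. Over all 13197 genes with at least 1 CPM in both depots the median difference was 0.01, with quartiles of −0.26 and 0.26, and 51.3% of genes were higher in iWAT. Differences of more than 2-fold were found for 4.18% of these genes toward iWAT and for 3.05% toward eWAT. The spread between mice was not computed for any of the 9 genes, and no statement on their reliability follows from these counts.

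**Figure D1:**
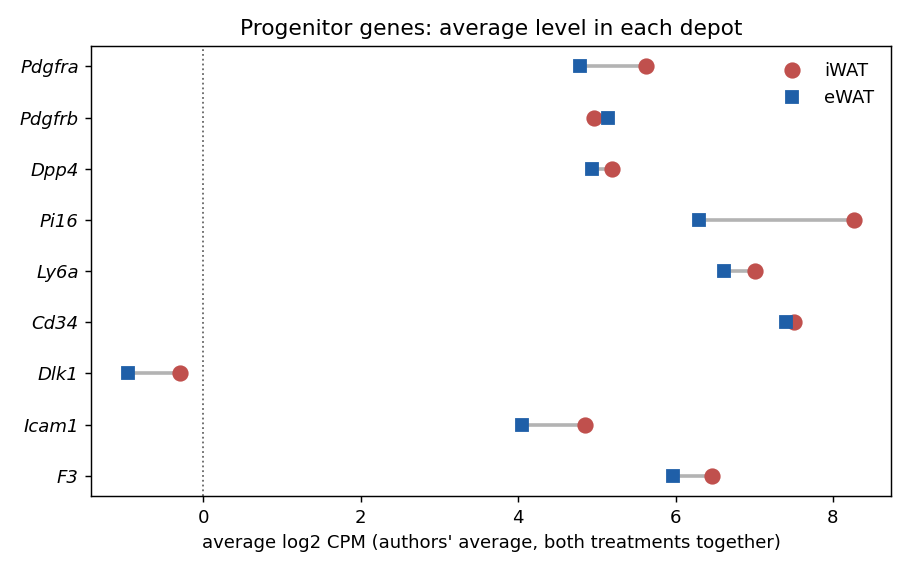
Average log2 CPM (horizontal axis) of the 9 progenitor genes in iWAT (red circles) and eWAT (blue squares), each point the authors' average over both treatments, with no error. The dotted line marks 1 CPM. Pi16 has the widest gap, at 8.27 in iWAT and 6.30 in eWAT, and Dlk1 lies below the line in both depots.

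The receptors for platelet-derived growth factor had averages that differed in opposite directions, Pdgfra by more than Pdgfrb. Pdgfra encodes PDGFRα, the receptor that marks adipocyte progenitors and other fibroblasts of fat, and lies on chromosome 5 of GRCm38 from 75152292 to 75198215. Its average was 49.2 CPM in iWAT and 27.5 CPM in eWAT, a difference of 0.84 on the log2 scale, and 94.5% of the genes with at least 1 CPM in both depots had a smaller or more negative difference. Pdgfrb encodes PDGFRβ, found on pericytes, smooth muscle cells and some progenitors, and lies on chromosome 18 from 61045150 to 61085061. It averaged 31.2 CPM in iWAT and 35.3 CPM in eWAT, a log2 difference of −0.18. The difference of Pdgfrb lay within the quartiles of all genes, while that of Pdgfra lay outside them. The median difference was −0.04 for the mural cell markers, Pdgfrb included, and −0.19 for the endothelial markers. Per kilobase of exon, the scale on which genes can be set against each other, Pdgfra had 4.91 and Pdgfrb 5.69 CPM in iWAT, and 2.74 and 6.44 CPM in eWAT. Pdgfrb was the higher of the pair in both depots on this scale, but with the longest transcript as the length Pdgfra took the sixth place and Pdgfrb the eighth among the 9 genes in iWAT.

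All 4 genes of the PDGF ligands were above 1 CPM in both depots. Pdgfd, whose product acts mainly through PDGFRβ, averaged 30.3 CPM in iWAT and 12.0 CPM in eWAT. The others were lower in iWAT. Pdgfc, whose product acts mainly through PDGFRα, had 18.4 CPM in iWAT and 26.6 CPM in eWAT, and Pdgfa, whose product as a homodimer binds PDGFRα, had 6.27 CPM in iWAT and 10.9 CPM in eWAT. Pdgfb, made by endothelium to recruit pericytes, had 4.49 CPM in iWAT and 6.17 CPM in eWAT. The receptor gene Pdgfra was thus higher in iWAT while Pdgfa and Pdgfc were higher in eWAT.

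The interstitial progenitor genes were Dpp4 and Pi16. Pi16 encodes a secreted or membrane-bound peptidase inhibitor and lies on chromosome 17 from 29317680 to 29330593. By CPM, which takes no account of length, it stood above 97.0% of the 13837 genes with at least 1 CPM in iWAT and above 85.0% of the 13657 such genes in eWAT. The log2 difference of 1.97 corresponds to a ratio of 3.91, and 99.0% of genes had a smaller or more negative difference between the depots. Dpp4 encodes a cell-surface peptidase that cleaves and inactivates incretins, GIP among them, and lies on chromosome 2 from 62330073 to 62412231. Its average was 36.7 CPM in iWAT and 30.6 CPM in eWAT, a log2 difference of 0.26, so the pair of interstitial markers differed between depots to very unequal extents.

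Other markers of interstitial progenitors did not share one direction. Of the 13 genes of that list with at least 1 CPM in both depots, Dpp4 and Pi16 included, 8 were higher in iWAT and 5 in eWAT, with a median log2 difference of 0.09, and over the 11 other than Dpp4 and Pi16 the median was 0.04. Wnt2, a secreted WNT ligand, averaged 4.67 CPM in iWAT and 0.76 CPM in eWAT and was left out of these counts because of its low level in eWAT. Dact2, an intracellular modulator of WNT and TGFβ signaling, had 3.72 CPM in iWAT and 1.87 CPM in eWAT. Fbn1, the microfibril protein fibrillin, lay on the other side with 47.7 CPM in iWAT and 113 CPM in eWAT. The gap of Pi16 was therefore not found across the list.

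Ly6a and Cd34 are surface markers used to sort stromal progenitors. Ly6a encodes the glycolipid-anchored protein SCA-1, lies on chromosome 15 from 74994877 to 74998031, and averaged 129 CPM in iWAT and 97.9 CPM in eWAT, a log2 difference of 0.40. Ly6a belongs to a cluster of related Ly6 genes, and how reads shared between them were counted is not given in the sources used here. Cd34 encodes a sialomucin that is also strong on endothelium, lies on chromosome 1 from 194938819 to 194961279, and had 182 CPM in iWAT and 170 CPM in eWAT, a log2 difference of 0.10. Cd34 was the gene of the 9 with the smallest difference between the depots. The 10 endothelial markers had summed averages of 621 CPM in iWAT and 678 CPM in eWAT, and 3 of them were higher in iWAT and 7 in eWAT, with a median log2 difference of −0.19. The part of endothelium in the level of Cd34 was not tested.

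Of the 15 genes of the stromal fibroblast list, which includes Pdgfra, Ly6a and Cd34, 13 were higher in iWAT and 2 in eWAT. The median log2 difference was 0.63, and over the 12 genes other than these 3 it was 0.65. Mmp2, a gelatinase that remodels matrix, averaged 143 CPM in iWAT and 50.4 CPM in eWAT. Pcolce, an enhancer of procollagen processing, had 135 CPM in iWAT and 60.5 CPM in eWAT, and Thy1, a surface marker of fibroblasts, 36.0 CPM in iWAT and 18.6 CPM in eWAT. Cd24a, used to separate early progenitors, had 6.15 CPM in iWAT and 2.99 CPM in eWAT. The part of lymphocytes in the levels of Thy1 and Cd24a was not tested. The log2 difference of Pdgfra, 0.84, was near that of Thy1 at 0.95, while Ly6a and Cd34 lay below the median of the list.

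**Figure D2:**
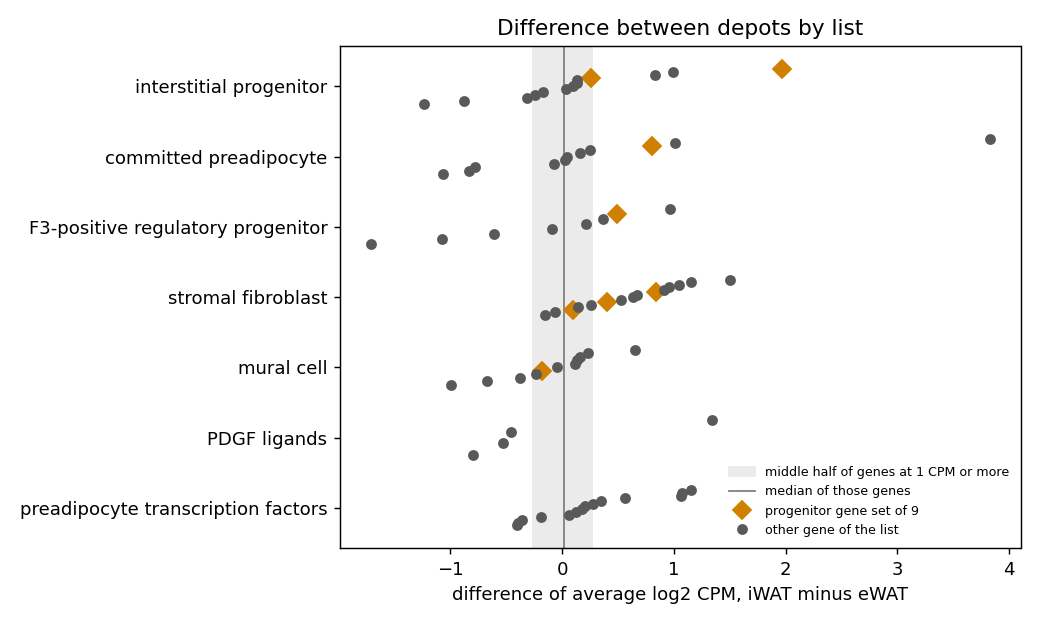
Difference of average log2 CPM, iWAT minus eWAT (horizontal axis), for genes with at least 1 CPM in both depots, by list (rows). Orange diamonds are genes of the set of 9, grey circles the other genes of each list, the line is the median over all genes (0.01) and the shaded band runs from −0.26 to 0.26, the quartiles of all genes. Most of the stromal fibroblast list lies to the right of the line, with a median of 0.63, and the mural cell list lies on both sides of it.

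Icam1 and Dlk1 stand for committed preadipocytes. Icam1 encodes an adhesion molecule that binds leukocyte integrins, is also made by activated endothelium and by leukocytes, and lies on chromosome 9 from 21015985 to 21028817. It averaged 28.9 CPM in iWAT and 16.6 CPM in eWAT, a log2 difference of 0.80, which 94.1% of genes did not reach. Vcam1, a related adhesion molecule on the same list, had 36.1 CPM in iWAT and 17.9 CPM in eWAT, a log2 difference of 1.01. Dlk1, or Pref-1, encodes a transmembrane protein that holds preadipocytes undifferentiated and lies on chromosome 12 from 109452823 to 109463336. It averaged 0.817 CPM in iWAT and 0.514 CPM in eWAT and was the only one of the 9 genes below 1 CPM. The lowest averages of any gene were −2.82 in iWAT and −2.33 in eWAT on the log2 scale, against which Dlk1 stood at −0.29 in iWAT and −0.96 in eWAT, so it was listed above the lowest values in both depots. Its ratio of 1.59 between iWAT and eWAT rests on very low averages and is not read as a difference.

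The other genes of the committed preadipocyte list went both ways. Of its 11 genes with at least 1 CPM in both depots, 7 were higher in iWAT and 4 in eWAT, with a median log2 difference of 0.04. Cxcl14, a chemokine of stromal cells, had the widest gap, with 111 CPM in iWAT and 7.85 CPM in eWAT. The basement membrane collagen Col15a1 averaged 130.5 CPM in iWAT and 274 CPM in eWAT, and the lipase Lpl, also a major product of mature adipocytes, 3754 CPM in iWAT and 6684 CPM in eWAT. Pparg, the master regulator of adipocyte differentiation, differed by 0.04 on the log2 scale, with 310.2 CPM in iWAT and 301.5 CPM in eWAT. The part of mature adipocytes in the levels of Lpl, Pparg, Fabp4 and Cd36, all on this list, was not tested.

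F3 encodes tissue factor, the cell-surface starter of blood coagulation and a marker of a regulatory population of progenitors. It lies on chromosome 3 from 121723537 to 121735048 and averaged 88.0 CPM in iWAT and 62.7 CPM in eWAT, a log2 difference of 0.49. Of the 8 genes listed for this population, F3 included, 4 were higher in iWAT and 4 in eWAT, with a median log2 difference of 0.06. Abcg1, a cholesterol exporter, had 141 CPM in iWAT and 71.9 CPM in eWAT. By contrast Fmo2, a flavin monooxygenase, had 27.3 CPM in iWAT and 57.6 CPM in eWAT, and Mgp, the matrix Gla protein, 9.82 CPM in iWAT and 32.1 CPM in eWAT.

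**Figure D3:**
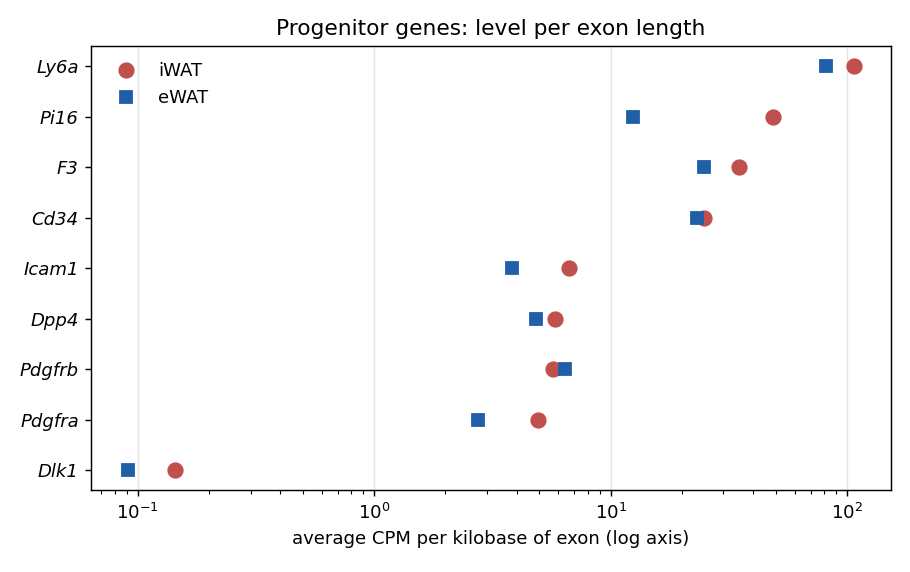
Average CPM per kilobase of exon (horizontal axis, log scale) of the 9 genes in iWAT (red circles) and eWAT (blue squares), sorted by the value in iWAT. Ly6a is highest in both depots, at 107 in iWAT and 81.3 in eWAT, and Dlk1 lowest, at 0.144 in iWAT and 0.0908 in eWAT.

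The genes differ in length, with 1205 exonic bases in Ly6a and 10024 in Pdgfra, and were set in order per kilobase of exon. These lengths are from GENCODE, which need not be the annotation used for counting. In iWAT the order was Ly6a (107 CPM per kilobase), Pi16 (48.5), F3 (34.8), Cd34 (24.9), Icam1 (6.64), Dpp4 (5.81), Pdgfrb (5.69), Pdgfra (4.91) and Dlk1 (0.144). In eWAT it was Ly6a (81.3 CPM per kilobase), F3 (24.8), Cd34 (23.3), Pi16 (12.4), Pdgfrb (6.44), Dpp4 (4.85), Icam1 (3.81), Pdgfra (2.74) and Dlk1 (0.0908). The first 4 places belonged to the same genes in both depots, with Pi16 in the second place in iWAT and in the fourth in eWAT. Since only averages were used, which neighbours in these orders differ beyond their spread was not determined. With the longest transcript in place of all exons, 4 of the 9 genes kept their place in iWAT and 4 in eWAT. In GENCODE, genes on the opposite strand overlap Pdgfra, Dpp4, Pi16, Cd34 and Icam1, and whether counting used the strand is not given in the sources used here.

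Mural cell markers gave no common direction. Of 11 such genes, Pdgfrb included, 5 were higher in iWAT and 6 in eWAT, with a median log2 difference of −0.04. Mcam, an adhesion molecule of pericytes and endothelium, averaged 76.6 CPM in iWAT and 153 CPM in eWAT, and Acta2, smooth muscle actin, 61.4 CPM in iWAT and 97.5 CPM in eWAT. Rgs5, a pericyte regulator of G-protein signaling, had 112 CPM in iWAT and 71.0 CPM in eWAT. The log2 difference of Pdgfrb, −0.18, lay between those of Acta2 (−0.67) and Rgs5 (0.66).

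All 14 transcription factors of preadipocytes on the list reached 1 CPM in both depots, 10 of them higher in iWAT and 4 in eWAT, with a median log2 difference of 0.19. The widest gaps were those of Gata3, a repressor of adipogenesis, with 6.12 CPM in iWAT and 2.74 CPM in eWAT, Prrx1, a mesenchymal homeobox factor, with 27.8 CPM in iWAT and 13.2 CPM in eWAT, and Twist2, with 10.3 CPM in iWAT and 4.94 CPM in eWAT. The part of T cells in the level of Gata3 was not tested. Zfp423, a factor of preadipocyte commitment, had 27.9 CPM in iWAT and 36.7 CPM in eWAT.

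Markers of other cells also differed between the depots, several by far more than the progenitor genes. Summed over 8 mesothelial markers, the averages were 4.72 CPM in iWAT and 351 CPM in eWAT, and 6 of the 8 were under 1 CPM in iWAT, Msln, Upk3b and Wt1 among them. Mesothelium covers visceral fat, and these values go with the depot labels. The 10 B cell markers summed to 254 CPM in iWAT and 16.4 CPM in eWAT, where 5 were under 1 CPM, and the 10 T cell markers to 172 CPM in iWAT and 21.9 CPM in eWAT. Macrophage markers summed to 895 CPM in iWAT and 608 CPM in eWAT, and all 10 were higher in iWAT. Dpp4 is also made by T cells, Ly6a and Icam1 by lymphocytes and endothelium, and Icam1 by macrophages, and the part of these cells in the levels of Dpp4, Ly6a and Icam1 was not tested. Natural killer cell markers (8 genes) summed to 52.9 CPM in iWAT and 15.2 CPM in eWAT, and those of lymph node stroma (10 genes) to 137 CPM in iWAT and 48.3 CPM in eWAT. Of the 4 lymph node stroma genes with at least 1 CPM in both depots, 3 were higher in iWAT. The other, Chst4, had 1.43 CPM in iWAT and 6.32 CPM in eWAT. The filter left out 6 genes of the list that were under 1 CPM in eWAT. Among these were Ccl19, with 6.58 CPM in iWAT and 0.482 CPM in eWAT, and Glycam1, with 3.74 and 0.199 CPM. Of the 6, Prox1 alone was lower in iWAT, with 0.915 CPM against 0.993 CPM in eWAT. Fcer2a, with 25.6 CPM in iWAT, is on both this list and that of B cells. The 10 adipocyte markers, which check the tissue, summed to 30439 CPM in iWAT and 34392 CPM in eWAT. Muscle markers (6 genes) summed to 22.1 CPM in iWAT and 53.1 CPM in eWAT, of which Acta1 alone made up 19.4 CPM in iWAT and 47.5 CPM in eWAT. Actn3 had 0.237 CPM in iWAT and 3.66 CPM in eWAT, and Mylpf 1.80 CPM in iWAT and 1.14 CPM in eWAT. Tnnt3, Ckm and Myh4 were under 1 CPM in both depots. Epithelial markers (6 genes) summed to 2.09 CPM in iWAT, all under 1 CPM, and 9.31 CPM in eWAT, where Krt14 (3.91 CPM) and Krt18 (4.42 CPM) made up most of the sum. Epcam and Cdh1, the adhesion molecules of that list, were under 1 CPM in both depots, with 0.873 and 0.380 CPM in iWAT and 0.349 and 0.232 CPM in eWAT. The keratin genes on the mesothelial list, Krt8 and Krt19, had 0.369 and 1.58 CPM in iWAT and 7.71 and 38.5 CPM in eWAT. The part of mesothelium in the levels of Krt14 and Krt18 was not tested.

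**Figure D4:**
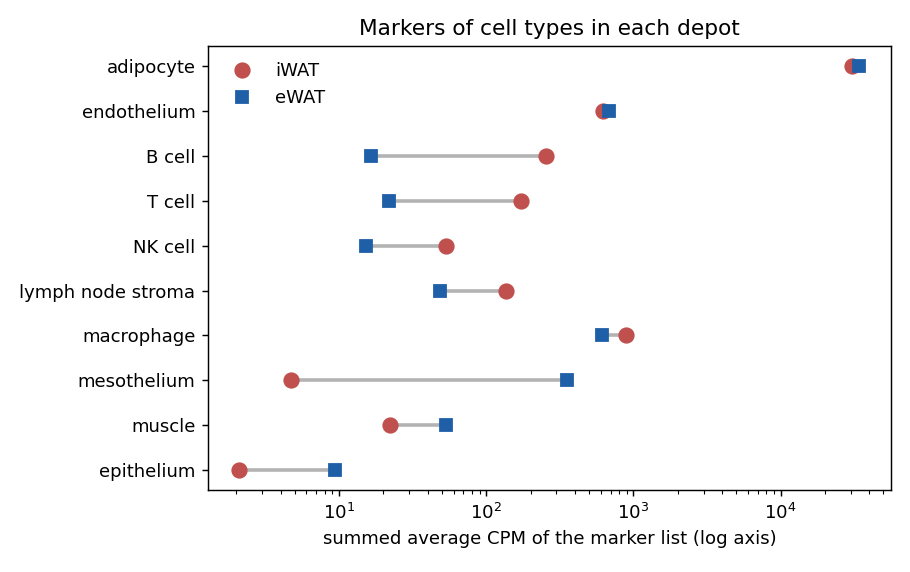
Summed average CPM (horizontal axis, log scale) of marker lists for 10 cell types in iWAT (red circles) and eWAT (blue squares). B cell and T cell markers are higher in iWAT, at 254 and 172 CPM, mesothelial markers are higher in eWAT, at 351 CPM, and endothelial markers are at 621 CPM in iWAT and 678 CPM in eWAT.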

How the data were processed

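RNA of iWAT and eWAT was sequenced from polyadenylated libraries. For the authors' tables, Trim Galore 0.6.4 served for trimming and Rsubread for alignment (GRCm38), DESeq2 1.32.0 for removing low counts and edgeR 3.34.0 for the comparison. The counting step and the annotation are not named in the sources used here. The deposited genes carry Entrez identifiers, so the annotation counted need not be GENCODE. The average log2 CPM of each gene was computed by the authors with edgeR and deposited, 1 value for each gene and depot over both treatments. Raised to the power of 2, it summed to 1006550 in iWAT and 1006100 in eWAT.

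The tables hold 12 further columns of values per sample, 6 in each, whose headings are bare numbers that match no label. As they could not be tied to samples of the series, they were left out of every step, also where the table alone gives the depot. The columns of log2 fold change, likelihood ratio, p-value and FDR hold the authors' own comparison and were not used. The count tests intended for analog against saline in each depot, for the difference of that response between depots and for iWAT against eWAT were therefore not run, and the averages used have no replicates, depth or error.

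Differences are average log2 CPM in iWAT minus that in eWAT. Genes with an average of at least 1 CPM (log2 CPM of 0) entered percentiles and list medians. Exon lengths and coordinates are from GENCODE M21 on GRCm38, matched by symbol, and may differ from the exons that the authors counted. The 9 genes and the 17 lists, with 165 symbols that were all found, were chosen with earlier results of these data known. Genes of other lists were to be named by their p. In its place, they were drawn mainly from the 4 with the widest difference in a list, with others (Pparg, Zfp423 and the markers of cell types) chosen after their values were seen. The likeness of other genes to Pdgfra over samples was not computed. The steps were tested on simulated data. Python 3.11.15, numpy 2.4.6 and pandas 2.3.3 were used.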

Additional observations from a re-analysis of the deposited data

How the results depend on the processing

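The differences between depots were recomputed under 3 scalings chosen after seeing the data. These subtracted the median difference of genes with at least 1 CPM (0.01) or with at least 32 CPM (0.02), or rescaled each table after leaving out lymphocyte and lymph node genes. The last moved the median difference by 5.49e-05. The smallest difference among the 9 genes was 0.10 (Cd34), larger than each of these shifts, so no sign could change and the kept signs say nothing on stability. The percentile of a gene depends on the filter. The lowest, that of Icam1 in eWAT, was 48.8 over genes with at least 1 CPM, 74.3 with no filter and 43.4 where the floor was a log2 CPM of 1. The order per kilobase depends on the length used, and 4 of 9 genes in each depot kept their place with the longest transcript. No paired analysis was possible because the columns of values per sample carry no replicate number and could not be matched to the labels. As these columns were left out of every step, leaving out a replicate, another test and another filter on counts were not run, and what depth limits was not assessed.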
